A study of Mus musculus with 12 samples.

Results

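The DEAD and DEAH box RNA helicases described here are the genes of the deposited table whose symbol begins with Ddx or Dhx followed by a digit, with Ddx58 and Dhx58 left out of the selection. They number 49 of 11762 genes, 34 with a Ddx name and 15 with a Dhx name. No measured value was used to choose them. A symbol is not proof of activity: Ddx11 encodes a DNA helicase, and Ddx26b, now called Ints6l, is a relative of an Integrator subunit.

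DEAD and DEAH box proteins are named for a short motif in the pocket that binds and splits ATP. DEAD box enzymes mostly open short duplexes locally or clamp RNA, whereas DEAH box enzymes move along a strand and pull complexes apart, often after being switched on by a partner protein. Between them they serve splicing, ribosome assembly, export, translation and decay of mRNA, and in macrophages a few take part in sensing viral nucleic acid or are induced by interferon.

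The cells were J774A.1, a BALB/c mouse line with macrophage character that grows in culture, and the RNA was polyadenylated RNA sequenced on an Illumina instrument. The study had 4 groups of 3 biological replicates: control cells given a mock treatment (labelled untreated), cells given microparticles (MP), cells given lipopolysaccharide (LPS, the outer membrane component of Gram-negative bacteria that is recognised through Toll-like receptor 4), and cells given LPS and MP together (LPS+MP). No source used here gives the composition of the particles, the doses or the times, and all groups come from a single cell line, so p-values measure the spread between these cultures. The design asks what MP does to resting cells and to LPS-stimulated cells, and what LPS does with and without MP.

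Values are in CPM, in which every library has the same total, so they give each gene's share of a library's mRNA, and a lower share cannot be told apart from a gain by other genes. In this text a gene "rose" or "fell" when the adjusted p was under 0.05 and the change was over 2-fold, the thresholds in the series description. It was "higher" or "lower" when the adjusted p alone was under 0.05. Fold changes are differences of means on the log2(CPM + 1) scale with their standard error (SE), which slightly understates changes of low genes.

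The 10 macrophage markers examined were all listed, with summed levels of 6072 to 6718 CPM in control, 6211 to 6550 in MP, 7767 to 8821 in LPS and 6135 to 6336 in LPS+MP libraries. Single markers moved in different directions within that sum. Emr1 averaged 34.8 CPM in control and 957 in LPS libraries, whereas Mrc1 averaged 15.5 in control, 2.84 in LPS and 0.607 in LPS+MP libraries. None of the 5 T cell, 5 B cell or 5 epithelial markers is listed in the table. Of 5 fibroblast markers only Pdgfra was listed, between 1.00 and 10.8 CPM. Of 5 platelet markers 3 were listed, summing to 240 to 296 CPM in control and 525 to 641 CPM in LPS libraries, and their part in the results was not tested. Replicate 2 of the LPS group stood apart from the other LPS libraries: 339 genes lay more than 1 log2 unit from the average of its fellow LPS libraries, against 1 to 29 genes for every other library. None of those 339 was a helicase, but 6 helicases deviated by more than 0.5. The deviation of the 49 helicases in that library had a Spearman correlation of -0.74 with transcript GC content (-0.60 over all genes; genes within a library are not independent). Dhx34, with 60.5% GC, was 0.82 log2 units below the other LPS libraries there and Ddx10, with 42.8% GC, was 0.88 above.

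Every one of the 49 helicases was expressed and passed the filter of at least 1 CPM in at least 3 libraries, and all 49 would also have passed a minimum of 5 CPM. The transcripts of the family together made up 5683 to 5810 CPM in control, 5387 to 5711 in MP, 5309 to 6004 in LPS and 5123 to 5315 in LPS+MP libraries. The group means were 5762 ± 68.7, 5568 ± 165, 5545 ± 398 and 5250 ± 110 CPM (SD, n = 3). The value of 6004 CPM was that of LPS replicate 2. All 3 LPS+MP libraries lay below all control and all MP libraries. Per kilobase of transcript, and averaged over the 12 libraries, the most abundant member was Ddx5 at 314 CPM per kb, followed by Ddx39b at 168 and Ddx17 at 84.7. At the other end were Dhx40 at 4.26, Ddx60 at 4.14 and Ddx59 at 3.97 CPM per kb.

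Few helicases moved by more than 2-fold. With LPS alone, 1 of 49 rose (Ddx60) and 0 fell, or 2.04% of the members against 16.3% of all 11745 genes tested, 8.30% risen and 8.05% fallen. With LPS on top of MP, Ddx60 rose and Ddx11 fell, or 4.08% of the members against 13.6% of all genes, 5.71% risen and 7.88% fallen. With MP alone 0 of 49 passed, against 3.67% of all genes, and with MP on top of LPS 0 of 49, against 4.52%. At a minimum of 5 CPM, which all members pass, the shares over all genes were 16.6%, 14.2%, 3.65% and 4.60% in the same order.

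Small shifts were common among the helicases, in shares near those of all genes with LPS, alone or on top of MP, and with MP on top of LPS. At an adjusted p under 0.05 with no size threshold, LPS moved 32 of 49 members (65.3%, against 62.1% of all genes), MP moved 15 (30.6%, against 38.9%), MP on top of LPS moved 17 (34.7%, against 35.2%) and LPS on top of MP moved 28 (57.1%, against 55.6%). The count with MP depends on the fit: without LPS replicate 2 it was 26 (53.1% of all genes), and with only the compared groups in the fit 26 (53.4% of all genes). The sizes were modest: the median absolute log2 change with LPS was 0.30 for helicases and 0.40 for all genes, and with MP it was 0.17 and 0.24. In a count chosen after the values were seen, 48 of 49 helicases stayed within 0.5 log2 units of control with MP (98.0%, against 80.6% of all genes) and 37 with LPS (75.5%, against 59.4%). The median signed change with LPS was -0.08 for the helicases and -0.08 for all genes.

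**Figure D1:**
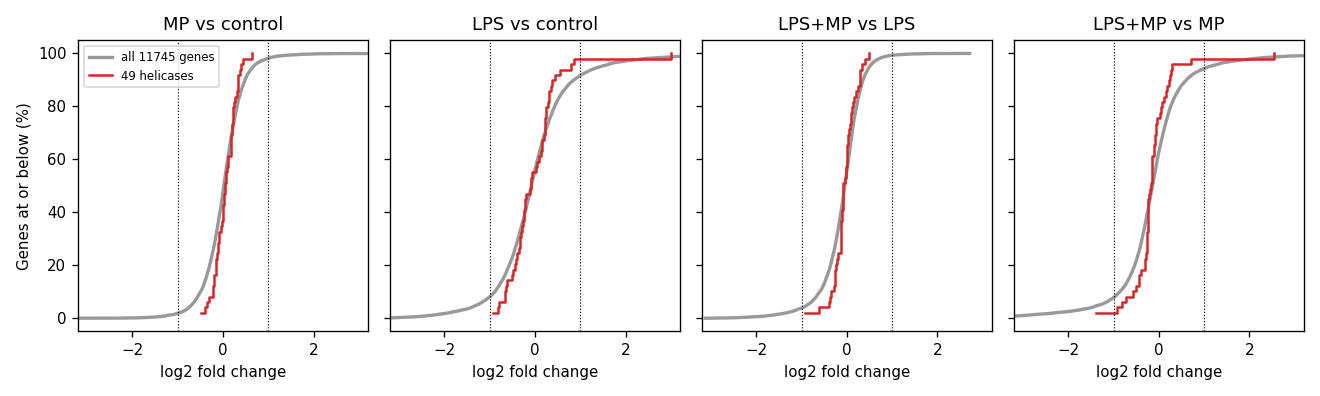
Cumulative share of genes (vertical axis, percent) at or below each log2 fold change (horizontal axis, cropped so that a few genes lie outside) in the 4 comparisons, for the 49 helicases in red and all 11745 genes tested in grey; dotted lines mark a 2-fold change. More of the red curve than of the grey lies between the dotted lines in each panel, and Ddx60 is the point beyond the right line with LPS (3.01) and with LPS on top of MP (2.54).

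Ddx60, a helicase induced by interferon and linked to antiviral RNA sensing, had the largest change of the family. It stood at 4.12, 6.20 and 5.85 CPM in the control libraries and at 5.47, 5.62 and 5.88 CPM in the MP libraries. It stood at 52.3, 57.1 and 41.3 CPM in the LPS libraries and at 40.6, 38.3 and 34.3 CPM in the LPS+MP libraries. No library without LPS came near any library with it, whereas control and MP overlapped. The log2 change was 3.01 (SE 0.14, adjusted p = 5.94e-11 by limma with Benjamini-Hochberg adjustment) with LPS alone and 2.54 (SE 0.14, adjusted p = 4.35e-10) with LPS on top of MP, 8.04-fold and 5.81-fold. Adding MP to LPS gave -0.39 (SE 0.14, adjusted p = 0.0431), with all LPS+MP libraries below all LPS libraries. That small decrease did not pass under 9 of 14 alternative settings, among them both other scalings (adjusted p up to 0.150), and the difference between the responses to MP with and without LPS was -0.47 (SE 0.20, adjusted p = 0.111).

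The promoter of Ddx60 is shown because its gene had the largest change and its letters hold a recognised interferon motif, and that of Ddx49 because it was the only other one with a match, a choice made after the values were seen. RefSeq promoter windows (GRCm38.p6, 250 bases before to 50 after the start site) were found for 44 of the 49 members, 43 by symbol and 1 by synonym. The interferon-stimulated response element was searched on both strands as GAAA, any 2 bases and GAAA, and matched in 2 of 44 members (4.55%) and in 3.99% of all 27025 genes with a window. The matches are in capitals, in the 250 bases before the start site, read 5′ to 3′ on the strand of the gene. Ddx60 lies at chr8:61927837-61928086 on the plus strand, with matches starting 53 and 19 bases before the start. Ddx49 lies at chr8:70302472-70302721 on the minus strand, with its match starting 227 bases before the start.
Ddx60: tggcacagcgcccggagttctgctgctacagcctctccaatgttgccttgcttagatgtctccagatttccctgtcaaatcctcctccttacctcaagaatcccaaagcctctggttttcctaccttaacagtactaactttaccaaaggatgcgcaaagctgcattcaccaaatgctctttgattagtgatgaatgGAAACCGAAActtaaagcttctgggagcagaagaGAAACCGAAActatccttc
Ddx49: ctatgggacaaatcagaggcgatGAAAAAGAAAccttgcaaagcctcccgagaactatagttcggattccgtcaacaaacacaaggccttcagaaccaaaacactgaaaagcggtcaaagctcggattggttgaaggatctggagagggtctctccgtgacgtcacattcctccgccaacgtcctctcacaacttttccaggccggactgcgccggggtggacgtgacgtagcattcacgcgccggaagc
The 2 windows differ in their data as well as in their letters. Ddx49, a nucleolar factor, stood at 26.8, 29.8 and 26.5 CPM in control and 29.2, 24.6 and 30.5 CPM in LPS libraries. Its log2 change with LPS was 0.02 (SE 0.10, adjusted p = 0.894; 95% interval -0.19 to 0.23). A match describes letters only, and binding was not measured.

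The 2 other members grouped with sensing did not follow Ddx60. Each member was placed in a single role group from textbook knowledge, so a member with several roles counts only under the assigned role. Dhx9, a nuclear helicase that unwinds double-stranded RNA and joins transcription complexes, stood at 352, 370 and 368 CPM in control and at 300, 313 and 329 CPM in MP libraries. It stood at 198, 270 and 219 CPM in LPS and at 180, 189 and 201 CPM in LPS+MP libraries. Every library with LPS was below every library without it, with log2 changes of -0.67 (SE 0.09, adjusted p = 1.33e-05) with LPS and -0.72 (SE 0.09, adjusted p = 7.59e-06) with LPS on top of MP. Ddx1, part of the tRNA ligase complex and also described as a sensor of double-stranded RNA, stood at 151, 148 and 144 CPM in control and 156, 160 and 166 CPM in MP libraries. With LPS it stood at 104, 138 and 114 CPM and with LPS+MP at 105, 106 and 111 CPM. By limma it was lower with LPS, at -0.32 (SE 0.09, adjusted p = 0.00431) without MP and -0.58 (SE 0.09, adjusted p = 3.93e-05) with it. Among 19 RNA helicases tested that carry other names, LPS left 6 higher and 7 lower, against 26.6% and 35.6% of all genes. Past 2-fold 4 rose and 0 fell (21.1%, against 16.3% of all genes, 8.30% risen and 8.05% fallen). These were Helz2, an interferon-induced coactivator (2.85, SE 0.09), Znfx1, a sensor of viral RNA at mitochondria (1.65, SE 0.07), Ascc3, a helicase of ribosome rescue (1.06, SE 0.14), and Mov10, an antiviral 5′ to 3′ helicase (1.00, SE 0.10). With MP alone 1 of the 19 rose (5.26%, against 3.67% of all genes in either direction): Dqx1, from 3.50 to 11.1 CPM (1.41, SE 0.18).

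**Figure D2:**
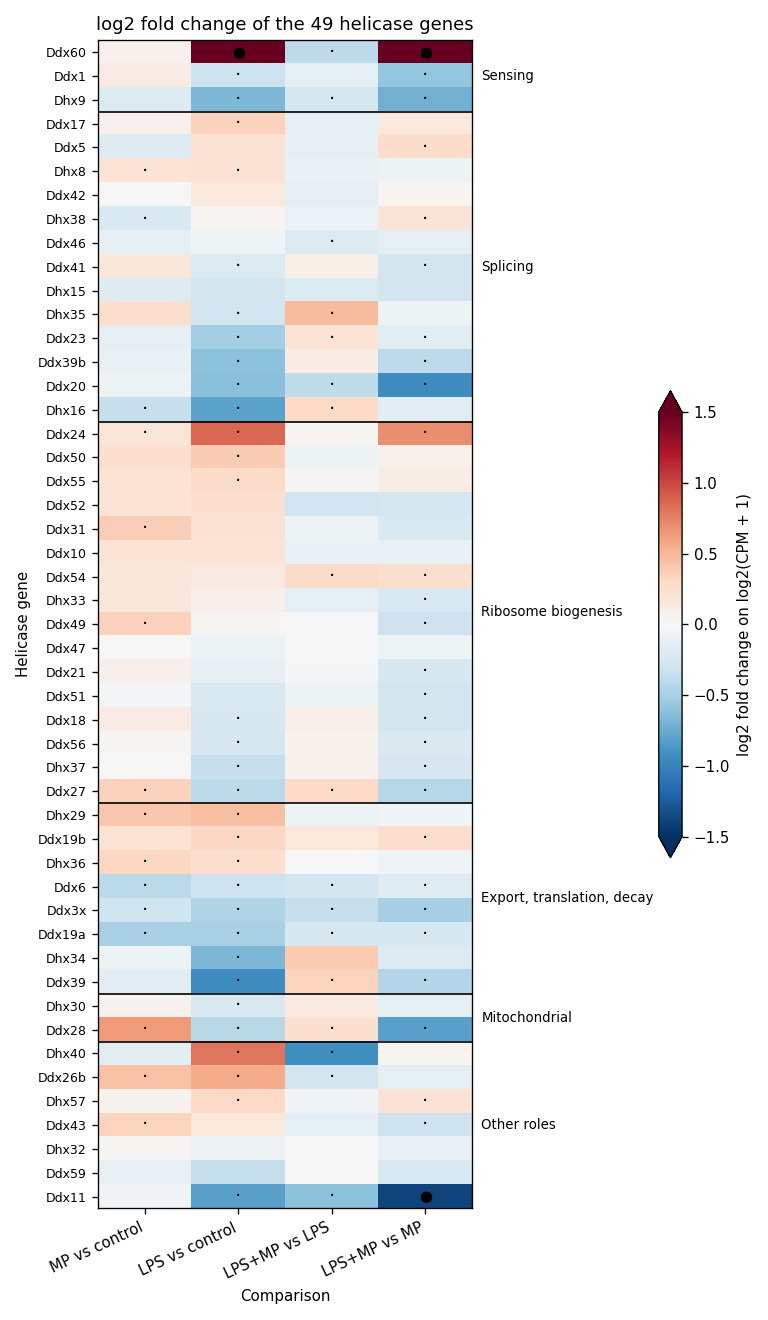
Log2 fold change (colour, red higher and blue lower, saturating at 1.5) of the 49 helicases (rows, grouped by role and sorted by the change with LPS) in 4 comparisons (columns). Small dots mark an adjusted p under 0.05 and large dots also a change over 2-fold, reached by Ddx60 in 2 columns and by Ddx11 in 1.

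The 13 splicing helicases divided with LPS: 2 were higher, 6 were lower and 5 did not pass. The share that passed, 61.5%, was near the 62.1% of all genes, of which 26.6% were higher and 35.6% lower. With median-ratio scaling between libraries 4 were higher and 4 lower. The lower ones were Dhx16 (the mammalian Prp2, which activates the spliceosome), Ddx20, Ddx39b, Ddx23, Dhx35 and Ddx41, and the higher ones were Ddx17 and Dhx8. Of these, Ddx41 did not pass in 7, Dhx35 in 5 and Dhx8 in 3 of 14 alternative settings. Dhx16 stood at 104, 103 and 103 CPM in control, 81.0, 83.3 and 78.2 CPM in MP, 63.9, 47.4 and 66.9 CPM in LPS and 69.2, 76.3 and 72.0 CPM in LPS+MP libraries. Control was above MP and LPS+MP was above LPS, so MP went with less Dhx16 in resting cells and more in stimulated cells. The log2 changes were -0.35 (SE 0.10, adjusted p = 0.0136) and 0.30 (SE 0.10, adjusted p = 0.0336), and their difference was 0.65 (SE 0.14, adjusted p = 0.00474). Without LPS replicate 2, the lowest Dhx16 library, the second of these was 0.15 and did not pass (adjusted p = 0.0747), and it also did not pass on leaving out any single LPS+MP library (adjusted p over all alternatives up to 0.127).

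Ddx39b, which clamps onto pre-mRNA during spliceosome assembly and then serves export, stood at 358, 359 and 351 CPM in control and 323, 339 and 327 CPM in MP libraries. It stood at 234, 209 and 252 CPM in LPS and 228, 255 and 270 CPM in LPS+MP libraries. Libraries with LPS were all below those without, with a log2 change of -0.62 (SE 0.08, adjusted p = 5.11e-06) for LPS alone. Ddx5, a coregulator of splicing and transcription and the most abundant member, stood at 1139, 1057 and 1065 CPM in control, 867, 958 and 1045 CPM in MP, 1198, 1486 and 1128 CPM in LPS and 1158, 1170 and 1149 CPM in LPS+MP libraries. The LPS change of 0.22 did not pass, and 0.28 (SE 0.10, adjusted p = 0.0232) with LPS on top of MP did. That call did not pass in 6 of 15 alternatives, with quantile normalization or on leaving out MP replicate 1, MP replicate 2 or any single LPS+MP library, and the change ran from 0.05 to 0.43 (adjusted p up to 0.676). Its close relative Ddx17 was higher with LPS by 0.35 (SE 0.07, adjusted p = 0.000408).

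Ddx20, the Gemin3 subunit of the complex that loads Sm rings onto small nuclear RNAs, was the nearest member to falling with LPS on top of MP. It stood at 58.8, 62.8 and 57.1 CPM in control, 57.6, 56.4 and 54.7 CPM in MP, 37.9, 34.9 and 42.0 CPM in LPS and 26.7, 30.3 and 30.1 CPM in LPS+MP libraries. LPS alone gave -0.63 (SE 0.09, adjusted p = 1.25e-05) and LPS on top of MP gave -0.93 (SE 0.09, adjusted p = 1.85e-07), with no overlap between the groups. Dhx35, found in spliceosomes that carry out catalysis, was an exception in the other direction. It stood at 37.6, 40.2 and 38.0 CPM in control, 44.6, 48.9 and 46.1 CPM in MP, 33.4, 25.9 and 35.6 CPM in LPS and 46.7, 42.4 and 43.3 CPM in LPS+MP libraries. The LPS group was the lowest, and adding MP to LPS gave 0.48 (SE 0.10, adjusted p = 0.00221). Its LPS change of -0.29 was -0.16 without LPS replicate 2 and did not pass (adjusted p = 0.0776).

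The proteins these helicases work with were examined as well. Among 43 spliceosome proteins tested, LPS left 0 higher and 27 lower at an adjusted p under 0.05. With LPS 3 fell (6.98%, near the 8.05% of all genes): Prpf19 (-1.18, SE 0.09), Snrpb (-1.28, SE 0.14) and Snrpg (-1.35, SE 0.23). With MP alone 3 were higher and 11 lower, against 20.6% and 18.3% of all genes. Of 12 proteins of the SMN and tRNA ligase complexes, which hold Ddx20 and Ddx1, 0 were higher and 5 lower with LPS. Of these Gemin6 fell (-1.21, SE 0.15), or 8.33% of that list. Of 19 G-patch proteins, the cofactors that switch on DEAH helicases, 4 were higher and 5 lower with LPS and 0 passed the 2-fold threshold. The 2 most abundant of them, Son and Rbm5, had LPS changes of -0.05 and 0.14 that did not pass. Over all genes LPS left 26.6% higher and 35.6% lower. The counts of these lists are not given under the other scalings.

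Ribosome biogenesis, the largest role with 16 helicases, showed small and mixed changes. With LPS 3 were higher (Ddx24, Ddx50 and Ddx55), 4 were lower (Ddx18, Ddx27, Ddx56 and Dhx37) and 9 did not pass, against 26.6% higher and 35.6% lower over all genes. With median-ratio scaling 6 were higher and 4 lower. With MP 4 were higher (Ddx24, Ddx27, Ddx31 and Ddx49) and 0 lower, against 20.6% and 18.3% of all genes. Without LPS replicate 2, or with only the compared groups in the fit, 8 were higher and 0 lower, and without control replicate 1, control replicate 3 or MP replicate 2 the count was 2 and 0. With LPS on top of MP 2 were higher (Ddx24 and Ddx54) and 8 lower (Ddx18, Ddx21, Ddx27, Ddx49, Ddx51, Ddx56, Dhx33 and Dhx37), against 19.0% and 36.6% of all genes. That excess of lower members depends on the scaling: 3 were higher and 1 lower (Ddx27) with median-ratio scaling, and 3 and 3 with quantile normalization. Without MP replicate 2 the count was 2 and 2, and without MP replicate 3 or LPS+MP replicate 1 it was 2 and 3.

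Ddx24, a nucleolar factor of the large ribosomal subunit, had the smallest adjusted p with LPS after Ddx60. It stood at 112, 120 and 114 CPM in control, 133, 129 and 130 CPM in MP, 204, 218 and 206 CPM in LPS and 210, 219 and 212 CPM in LPS+MP libraries. The groups formed 3 levels, with LPS and LPS+MP overlapping at the top. Over 15 alternatives the log2 change with MP ran from 0.15 to 0.22. It did not pass in 6 of them, median-ratio scaling included (adjusted p up to 0.0954 by limma). The log2 change with LPS was 0.86 (SE 0.06, adjusted p = 6.68e-09; 1.81-fold) and with LPS on top of MP 0.70 (SE 0.06, adjusted p = 7.99e-08). Its 95% interval with LPS, 0.73 to 0.99, ends just short of 2-fold.

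Ddx18, the Has1 relative of the large subunit pathway, stood at 121, 129 and 125 CPM in control, 134, 136 and 136 CPM in MP, 106, 99.5 and 112 CPM in LPS and 104, 120 and 114 CPM in LPS+MP libraries. Its change with LPS was -0.24 (SE 0.07, adjusted p = 0.00693). Ddx27, another large subunit factor, was higher with MP (0.34, SE 0.07) and lower with LPS (-0.39, SE 0.07), and it was higher again when MP was added to LPS (0.30, SE 0.07). Ddx47, a small subunit factor, showed no change that passed: its means ran from 86.1 to 91.0 CPM, and its 95% interval with LPS was -0.23 to 0.07. Among 46 other ribosome biogenesis factors MP left 19 higher and 3 lower, against 20.6% and 18.3% of all genes. LPS left 3 higher and 21 lower, against 26.6% and 35.6% of all genes. Past 2-fold 2 fell (4.35%, against 8.05% of all genes): Ubtf, the activator of RNA polymerase I (-1.04, SE 0.08), and Nop10, a box H/ACA protein (-1.08, SE 0.16).

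The 8 helicases of export, translation and decay all passed with LPS, 3 higher and 5 lower, against 26.6% and 35.6% of all genes. Dhx36, which unwinds G-quadruplexes, was the exception in some settings: its change of 0.25 was 0.14 without LPS replicate 2 and did not pass (adjusted p = 0.0561), nor did it pass without control replicate 3 or with only the compared groups in the fit. Ddx39, a relative of Ddx39b in mRNA export now named Ddx39a, had the largest decrease. It stood at 127, 112 and 118 CPM in control, 100, 102 and 116 CPM in MP, 65.8, 53.5 and 66.6 CPM in LPS and 68.6, 82.6 and 82.5 CPM in LPS+MP libraries. LPS libraries were the lowest and those with LPS+MP lay between them and MP. The log2 change with LPS was -0.93 (SE 0.10, adjusted p = 9.23e-07; 1.91-fold lower), and adding MP to LPS gave 0.33 (SE 0.10, adjusted p = 0.0197), which did not pass without LPS+MP replicate 2 or 3 or with only the compared groups in the fit (adjusted p up to 0.0874).

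Ddx3x, which helps translation of structured mRNAs and is encoded on chromosome X, was lower in each comparison. It stood at 306, 319 and 287 CPM in control, 255, 254 and 233 CPM in MP, 196, 285 and 196 CPM in LPS and 178, 171 and 176 CPM in LPS+MP libraries. LPS replicate 2, at 285 CPM, lay within 2 CPM of the lowest control library, and without it the other LPS libraries were at 196 CPM. The changes were -0.30 with MP, -0.45 with LPS, -0.34 with MP on top of LPS and -0.50 with LPS on top of MP, with adjusted p between 0.00149 and 0.0468. The change with MP did not pass in 8 of 15 alternatives, among them quantile normalization and leaving out any 1 control or MP library (adjusted p up to 0.143), and the change with MP on top of LPS did not pass on leaving out any single LPS+MP library (adjusted p up to 0.104). Without LPS replicate 2 the change with MP on top of LPS was -0.16 (adjusted p = 0.0394). Ddx6, which represses translation and aids decapping in processing bodies, was also highest in control and lowest in LPS+MP. It stood at 265, 277 and 246 CPM in control, 198, 207 and 193 CPM in MP, 204, 228 and 206 CPM in LPS and 170, 186 and 172 CPM in LPS+MP libraries. Control was above every other group, and the change with MP was -0.40 (SE 0.07, adjusted p = 0.000424). In the opposite direction, Dhx29, which helps ribosomes scan structured leaders, was higher with MP (0.40, SE 0.09) and with LPS (0.45, SE 0.09), but not with MP on top of LPS (-0.08).

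Ddx19a and Ddx19b are close copies of the helicase that removes proteins from mRNA at the nuclear pore. They lie next to each other on chromosome 8, at 110974996 to 110997800 and 111003188 to 111031751 in the deposited coordinates. No source used here says how reads that fit both were counted, so the division between them is uncertain. Ddx19a stood at 54.5, 57.7 and 53.1 CPM in control, 35.8, 41.7 and 39.6 CPM in MP, 38.0, 42.4 and 36.5 CPM in LPS and 31.5, 32.6 and 34.6 CPM in LPS+MP libraries. Ddx19b stood at 23.8, 23.2 and 23.6 CPM in control, 26.5, 29.1 and 26.5 CPM in MP, 28.0, 31.8 and 28.8 CPM in LPS and 34.2, 32.7 and 32.2 CPM in LPS+MP libraries. The first was highest in control and lowest in LPS+MP, and the second ran the other way. Ddx19a was lower with MP (-0.49, SE 0.09, adjusted p = 0.000402) and with LPS (-0.49, SE 0.09, adjusted p = 0.000144), while Ddx19b was higher with LPS (0.31, SE 0.08, adjusted p = 0.00417) and had a change of 0.21 with MP that did not pass.

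The log2 ratio of Ddx19b to Ddx19a was -1.19 ± 0.08 in control, -0.49 ± 0.07 in MP, -0.39 ± 0.05 in LPS and 0.01 ± 0.11 in LPS+MP libraries (SD, n = 3). The groups compared did not overlap in any of the 4 comparisons. Each gave p = 0.10 in a two-sided exact permutation test, the smallest that 3 against 3 allows, and 0.16 after adjustment over the 16 ratios examined in 4 pairs of close relatives, which were chosen after the values were seen. In the other pairs (Ddx17 with Ddx5, Ddx50 with Ddx21, Ddx39 with Ddx39b) the difference of ratios between groups ran from -0.31 to 0.50. Some comparisons in each of those pairs also had no overlap, with the same p = 0.10 (0.16 adjusted) in the permutation test. Such separation was therefore not particular to Ddx19b and Ddx19a. Gle1, the pore protein that activates Ddx19, fell with LPS. It averaged 53.9 ± 1.35 CPM in control, 40.4 ± 0.607 in MP, 25.2 ± 0.383 in LPS and 13.0 ± 1.02 in LPS+MP (SD, n = 3). Its log2 changes were -1.07 (SE 0.08) with LPS and -1.57 (SE 0.08) with LPS on top of MP. It was 1 of 2 that fell with LPS among 30 factors of the exon junction, export and nonsense-mediated decay (6.67%, against 8.05% of all genes). The other was Alyref (-1.24, SE 0.11), the export adaptor recruited by Ddx39b. Of the 30, 6 were higher and 15 lower with LPS, against 26.6% and 35.6% of all genes.

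The 2 mitochondrial members, both involved in assembling the mitochondrial ribosome, differed with MP. Ddx28 stood at 27.0, 27.8 and 30.7 CPM in control, 44.8, 47.3 and 42.3 CPM in MP, 20.2, 21.8 and 20.9 CPM in LPS and 23.8, 26.4 and 24.6 CPM in LPS+MP libraries. MP libraries were above all others and LPS libraries below all others. It had the largest MP change of the family, 0.64 (SE 0.09, adjusted p = 4.48e-05; 1.55-fold), and was lower with LPS (-0.42, SE 0.09) and with LPS on top of MP (-0.82, SE 0.09, adjusted p = 9.66e-07). Dhx30 stood at 84.7, 87.1 and 86.9 CPM in control, 86.3, 90.9 and 90.9 CPM in MP, 72.8, 74.2 and 73.3 CPM in LPS and 78.8, 84.5 and 79.5 CPM in LPS+MP libraries. Its change with LPS was -0.23 (SE 0.06, adjusted p = 0.00502) and its change with MP, 0.05, did not pass.

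The 7 members with other roles included Dhx40, Ddx26b and Ddx11, which hold 3 of the 4 largest differences between the MP responses with and without LPS. Ddx11, a DNA helicase of sister chromatid cohesion, stood at 46.8, 44.2 and 47.1 CPM in control, 45.1, 43.5 and 45.9 CPM in MP, 25.1, 24.0 and 28.7 CPM in LPS and 17.7, 15.4 and 16.5 CPM in LPS+MP libraries. Control and MP overlapped, LPS was below both and LPS+MP below all. LPS alone gave -0.81 (SE 0.09, adjusted p = 1.22e-06; 1.75-fold lower), short of 2-fold, while LPS on top of MP gave -1.39 (SE 0.09, adjusted p = 2.24e-09; 2.62-fold lower). MP gave -0.04 (SE 0.09, adjusted p = 0.785) without LPS and -0.62 (SE 0.09, adjusted p = 7.37e-05) with it, a difference of -0.58 (SE 0.13, adjusted p = 0.00394).

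Dhx40, a DEAH member without a settled role, was high in a single group. It stood at 14.2, 14.9 and 13.2 CPM in control, 14.0, 11.9 and 11.5 CPM in MP, 20.5, 29.5 and 26.6 CPM in LPS and 12.2, 14.0 and 12.5 CPM in LPS+MP libraries. LPS libraries lay above all others, and the other 3 groups overlapped. LPS gave 0.80 (SE 0.13, adjusted p = 6.72e-05) and adding MP to LPS gave -0.92 (SE 0.13, adjusted p = 6.03e-05), against -0.16 (SE 0.13, adjusted p = 0.345) in cells without LPS. The difference between the responses to MP was -0.76 (SE 0.18, adjusted p = 0.00795). Without LPS replicate 1, the lowest LPS library, the change with MP on top of LPS was -1.07 (SE 0.12, adjusted p = 1.00e-05) and passed the 2-fold threshold. Without LPS replicate 2, the highest, that change was -0.81 (adjusted p = 2.16e-05) and the change with LPS 0.69. Over all alternatives the change with MP on top of LPS ran from -1.07 to -0.78.

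Ddx26b stood at 50.8, 45.5 and 50.1 CPM in control, 65.9, 64.0 and 69.4 CPM in MP, 67.3, 77.1 and 73.3 CPM in LPS and 58.3, 55.8 and 66.3 CPM in LPS+MP libraries. The mean was higher with each agent alone than with both, but LPS+MP and MP libraries overlapped, and that change of -0.14 did not pass (SE 0.08, adjusted p = 0.157). MP gave 0.44 (SE 0.08, adjusted p = 0.000765) without LPS and -0.27 (SE 0.08, adjusted p = 0.0220) with it, a difference of -0.71 (SE 0.12, adjusted p = 0.000595). The change of -0.27 did not pass without LPS+MP replicate 1 or 2 or with only the compared groups in the fit (adjusted p up to 0.106). Dhx57 stood at 40.4, 39.7 and 43.5 CPM in control, 43.4, 41.6 and 42.9 CPM in MP, 49.3, 53.1 and 50.7 CPM in LPS and 48.6, 48.6 and 51.9 CPM in LPS+MP libraries. Libraries with LPS were all above those without, and the change with LPS was 0.30 (SE 0.07, adjusted p = 0.00202). Dhx32 passed in no comparison, with group means from 25.2 to 27.3 CPM and a 95% interval with LPS of -0.30 to 0.14.

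**Figure D3:**
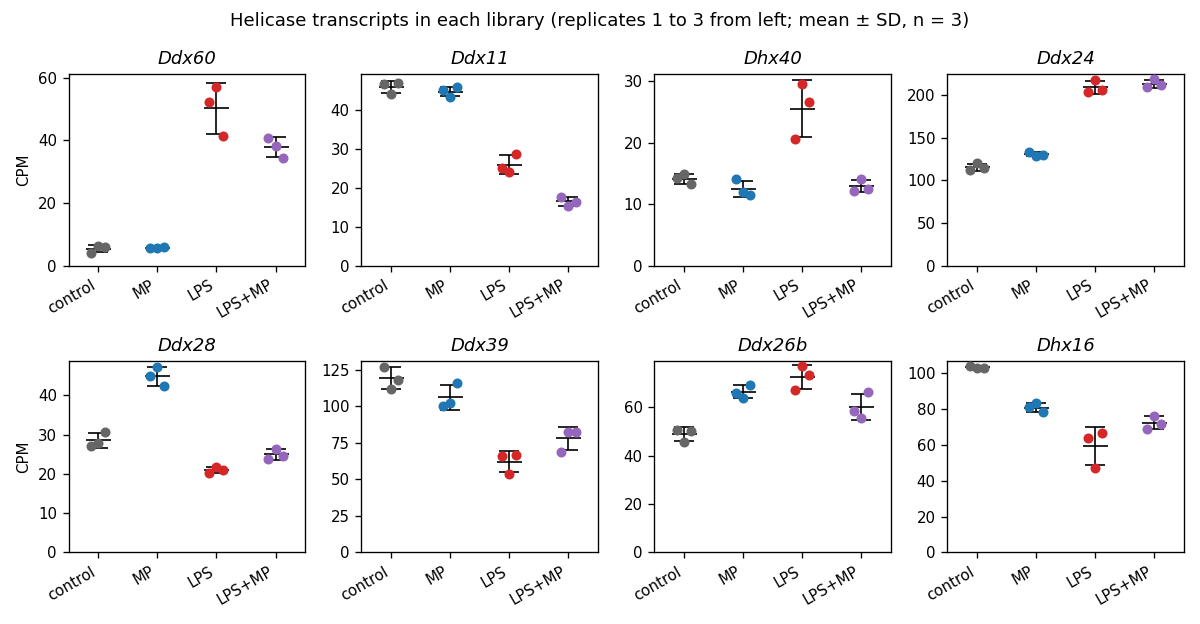
CPM (vertical axis, from 0) in each of the 12 libraries for 8 helicases; points are replicates 1 to 3 from left to right in each group, and bars are the mean ± SD (n = 3). Ddx60 is high only in the groups with LPS, Ddx11 is lowest in LPS+MP (15.4 to 17.7), Dhx40 is high in LPS alone (20.5 to 29.5), and Ddx28 is highest in MP (42.3 to 47.3).

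The direction of the small shifts was uneven between comparisons. With MP 10 members were higher and 5 lower (20.6% and 18.3% of all genes), and with median-ratio scaling between libraries 8 and 7. With LPS 12 were higher and 20 lower (26.6% and 35.6% of all genes), and with that scaling 17 and 18. With MP on top of LPS 7 were higher and 10 lower (13.0% and 22.2% of all genes), and with that scaling 8 and 6. With LPS on top of MP 7 were higher and 21 lower (19.0% and 36.6% of all genes), against 9 and 9 with median-ratio and 7 and 13 with quantile scaling. In this comparison median-ratio scaling moved the median of all genes from -0.14 to -0.01, so the excess of lower over higher helicases there changes with the scaling. No member that passed changed sign under either scaling.

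Leaving out LPS replicate 2 kept the calls of Ddx60 and Ddx11 and changed some of these counts. With MP 17 were then higher and 9 lower (27.8% and 25.2% of all genes), since the spread is estimated over all groups. For the comparisons that hold no LPS-only cells, MP against control and LPS+MP against MP, this alternative was added after the data were seen. With LPS 12 were higher and 22 lower (29.2% and 37.7% of all genes). With MP on top of LPS the counts were 7 and 7 (14.7% and 25.8%), and with LPS on top of MP 8 and 28 (22.3% and 43.3%). Other single libraries mattered as well. The count with MP was 9 without control replicate 3. The count with MP on top of LPS was 9, 7 and 10 without LPS+MP replicate 1, 2 and 3. The count with LPS on top of MP was 15 without MP replicate 2 and 17 without LPS+MP replicate 1.

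The responses to MP in resting and in stimulated cells, which share no library, were set side by side in a comparison chosen after the values were seen. Of the 15 members that passed without LPS and the 17 that passed with it, 5 passed in both in the same direction (33.3% and 29.4%), and over all genes those shares were 41.1% and 45.4%. These were Ddx19a, Ddx3x and Ddx6, lower in both, and Ddx27 and Ddx28, higher in both. Ddx6 and Ddx27 passed in every alternative in both settings. With MP on top of LPS, Ddx19a did not pass in 9, Ddx28 in 7 and Ddx3x in 5 of 14 alternatives. Ddx19a there did not pass with either other scaling or without LPS replicate 2 (adjusted p = 0.0931). Ddx26b and Dhx16 passed in both with opposite directions. The Spearman correlation of the 2 changes was 0.22 over the 49 helicases and 0.44 over all genes, given as a description.

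The response to LPS was more alike with and without MP. Of 32 members that passed without MP and 28 with it, 20 passed in both in the same direction (62.5% and 71.4%; over all genes 66.4% and 74.2%) and 0 in opposite directions. The Spearman correlation was 0.73 over the helicases and 0.76 over all genes. No library is shared between those comparisons either.

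The difference between the MP responses itself passed at an adjusted p under 0.05 for 10 of 49 helicases, 20.4% against 22.0% of all genes, and for 0 with a difference over 2-fold, against 4.70%. It was negative for 7, meaning a lower response with LPS than without: Dhx40, Ddx26b and Ddx11 above, and Dhx29, Ddx43, Ddx31 and Ddx28. It was positive for 3: Dhx16, Ddx39 and Ddx23. Over all genes 15.5% were negative and 6.45% positive. The count was 16 without LPS replicate 2 (31.0% of all genes). It was 6 without control replicate 1, MP replicate 2 or LPS+MP replicate 3 (16.8%, 17.0% and 17.9% of all genes).

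**Figure D4:**
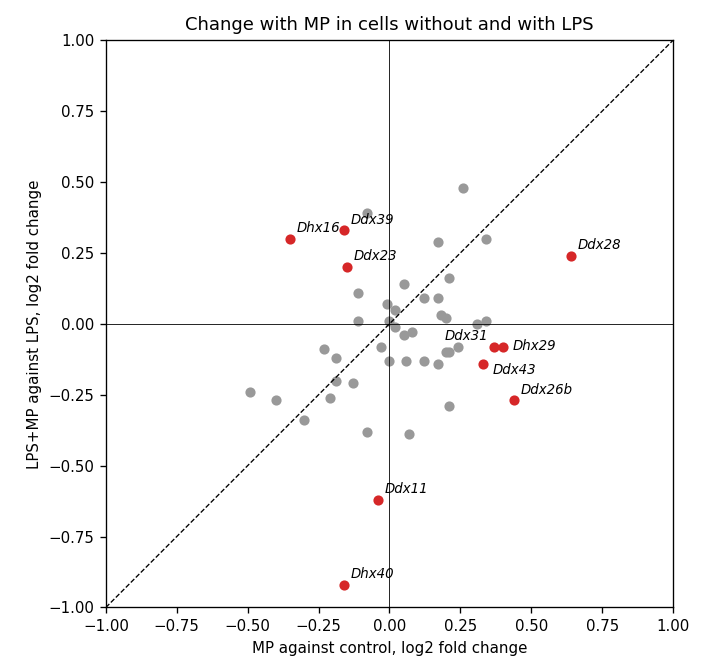
Log2 fold change with MP in cells without LPS (horizontal axis, MP against control) and in cells with LPS (vertical axis, LPS+MP against LPS) for the 49 helicases; red points passed the test of the difference at an adjusted p under 0.05, and the dashed line marks equal responses. Dhx40, Ddx26b and Ddx11 lie farthest below the line (differences of -0.76, -0.71 and -0.58). Dhx16 and Ddx26b are among the points in quadrants of opposite sign, and only these 2 of them passed in both settings.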

How the data were processed

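The labels gave the group and replicate number of the 12 libraries. Directional libraries were made from polyadenylated RNA, per the labels' protocols. The submitters' processing notes list TopHat2 2.1.1, HTSeq, Trimmomatic 0.36, FastQC 11.5, edgeR and DESeq2 without a role. Neither genome build nor annotation is given in the sources used here. Although headed RPKM, the deposited columns were taken to be CPM, since each sums to 998867 to 999273 over the authors' 11762 genes. The deposited logCPM column, read as log2 CPM averaged by the authors, differed from the log2 mean with an SD of 0.20, against 0.99 after multiplying by transcript length. Low values were whole multiples of 1 step for a share of 1.0 in MP replicate 1 and 0.186 to 0.935 elsewhere (6000 steps, tolerance 0.05), so no count model was fitted. Depth is unknown and no counting intervals are given. All 49 transcript IDs were found in GENCODE M21, which gave lengths and GC content, and 25 had identical coordinates there.

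Values were tested as log2(CPM + 1) with limma 3.58.1 (R 4.3.3) and a variance trend in 1 fit of all 12 libraries, after removing 17 genes that did not reach 1 CPM in 3 libraries, with Benjamini-Hochberg adjustment over 11745 genes. The procedure was tested on simulated data. The members, gene lists and tests were chosen with earlier results of these data known. Members were described by library when they passed both thresholds, were among the 2 most abundant of their role or had the 3 smallest adjusted p of a comparison with under 3 calls, and Ddx20, Ddx49 and Ddx19b were added after their values were seen. List genes named were up to 4 that passed, by smallest adjusted p, or else the 2 most abundant. Alternatives varied the pseudocount (0.1), filter, scaling, variance model, replicate block and samples fitted.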

Additional observations from a re-analysis of the deposited data

Results flagged for a closer look

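In a test of the difference itself, 20.4% of helicases passed, against 22.0% of all genes (limma, adjusted p under 0.05 over all genes, no size threshold). By that test the change with MP differed between cells with and without LPS for 10 of 49 helicases (values are log2 differences). Those with a lower response in LPS-treated cells were Dhx40 at -0.76, Ddx26b at -0.71, Ddx11 at -0.58, Dhx29 at -0.48 (adjusted p = 0.0180), Ddx43 at -0.47 (adjusted p = 0.0324), Ddx31 at -0.45 (adjusted p = 0.0304) and Ddx28 at -0.40 (adjusted p = 0.0308). Those with a higher response were Dhx16 at 0.65, Ddx39 at 0.49 (adjusted p = 0.0223) and Ddx23 at 0.35 (adjusted p = 0.00889). Ddx11, Ddx23, Ddx26b, Dhx16 and Dhx40 passed in all 19 alternatives. Of the other 5, Ddx43 was lost in 10 of 19, Ddx31 in 9, Ddx28 in 8, Ddx39 in 5 and Dhx29 in 2. The cause was not tested.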

How the results depend on the processing

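Without the 2-fold threshold the number of helicases passing was 15 with MP, 32 with LPS, 17 with MP on top of LPS, 28 with LPS on top of MP and 10 for the difference between MP responses. Leaving out single libraries, the number past both thresholds ran from 0 to 0 with MP, 1 to 1 with LPS, 0 to 1 with MP on top of LPS (Dhx40, without LPS replicate 1), 2 to 2 with LPS on top of MP and 0 to 0 for the difference. Ddx60 and Ddx11 kept their calls in all alternatives run, with log2 changes of 2.85 to 3.21 and 2.49 to 2.71 for Ddx60 and -1.44 to -1.19 for Ddx11. Of the members at an adjusted p under 0.05, 27 of 32 with LPS, 8 of 15 with MP, 6 of 17 with MP on top of LPS and 12 of 28 with LPS on top of MP passed in every alternative, and 0 changed sign. Fitting only the compared groups gave 26 with MP (53.4% of all genes) and 6 with MP on top of LPS (22.8% of all genes). Median-ratio scaling gave 18 with LPS on top of MP (51.9% of all genes). The 18 same-numbered pairs of libraries had a median correlation of deviations of 0.018 (-0.247 to 0.158), and only 3 of 12 had their best correlation within their own number, so the numbers were not treated as pairs. With a replicate block the numbers past both thresholds were 0, 1, 0, 2 and 0 in the order above, as without it. The share of CPM cannot show whether total RNA per cell changed, and with 3 libraries a group and unknown depth, a shift that did not pass is not shown to be absent.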

Other observations

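Of 10 genes tested from the MYC and MAX network, whose dimers bind the E-box CACGTG, MP left 3 higher and 5 lower. Over all genes 20.6% were higher and 18.3% lower. Past 2-fold 0 rose and 3 fell, against 3.67% of all genes in either direction. Those that fell were Mxd3 (-1.39, SE 0.19), Myc (-1.26, SE 0.16) and Mxd4 (-1.16, SE 0.14). Myc averaged 30.3 ± 1.42 CPM in control and 12.2 ± 2.17 in MP libraries (SD, n = 3). With LPS Mxd1, a repressor partner of MAX, rose from 18.9 ± 2.08 to 123 ± 11.6 CPM (2.65, SE 0.11). Mxd3 fell with LPS to 0.371 ± 0.393 CPM (-2.14, SE 0.19). The E-box was matched on both strands in 5 of 44 helicase promoters (11.4%; 8.09% of all 27025 genes with a window): Ddx42, Ddx5, Dhx33, Dhx35 and Dhx40. Their changes with MP were -0.00, -0.19, 0.17, 0.26 and -0.16, and none passed.

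Among 29 decapping and deadenylation factors, the partners of Ddx6, LPS left 6 higher and 12 lower (26.6% and 35.6% of all genes). Past 2-fold 2 rose and 1 fell (10.3%, against 16.3% of all genes, 8.30% risen and 8.05% fallen). Zfp36, which directs decay of cytokine mRNAs, rose by 1.97 (SE 0.10), from 61.5 ± 4.01 to 246 ± 42.2 CPM, and stood at 480 ± 23.9 CPM in LPS+MP libraries. Btg2 rose by 1.15 (SE 0.08) and Zfp36l2 fell (-1.68, SE 0.07). Of 25 initiation factors of the cap complex 4 were higher and 7 lower with LPS (26.6% and 35.6% of all genes). Past 2-fold 0 rose and 1 fell (4.00%, against 16.3% of all genes, 8.30% risen and 8.05% fallen). That was Eif4b (-1.05, SE 0.06), from 611 ± 10.2 to 295 ± 14.6 CPM.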
